A study of Homo sapiens with 12 samples.

Results

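A375 human melanoma cells that made a LATS-insensitive YAP were compared with A375 cells that made a YAP unable to bind TEADs, using 6 of the 12 RNA-seq libraries of the series. The first line carried YAP-S127A,S381A, called YAP-2SA, and the second carried YAP-S94A,S127A, with 3 libraries of each. Both proteins have the S127A change, and they differ at 2 residues, since S94A is in the second line and S381A is in the first, so this comparison alone does not separate the changes, and YAP-S127A differs by 1 residue from each. The members were chosen by the vector named in the sample titles. A condition field and the design text list S94A for the YAP-2SA samples as well, so the labels do not settle this point by themselves. Both lines came from retroviral transduction with an MSCV-IRES-Hygro vector and hygromycin selection, and each was plated 3 times on plastic in DMEM with serum and lysed after 24 h per the labels. The other 6 libraries are 3 of empty vector cells (Control) and 3 of cells with YAP-S127A, and they are used here only where named. Each line is a single transduced population, so effects of the line and of the YAP protein cannot be told apart, and p-values measure only the spread between platings.

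YAP is a transcriptional coactivator held in check by the Hippo pathway. The LATS kinases phosphorylate it on serines that keep it in the cytoplasm or mark it for degradation, and alanine at those serines frees it. YAP does not bind DNA itself and reaches its target genes mostly through the TEAD transcription factors, whose contact with YAP is lost when serine 94 is changed. In melanoma, YAP and its paralog TAZ are known for roles in invasion, metastasis and drug resistance.

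The sites that set the lines apart are shown first, as the reference coding sequence of YAP1 (GENCODE transcript with 488 codons, GRCh37, plus strand of chromosome 11), with the serine codon in capitals. This transcript was taken because, among the YAP1 transcripts examined, it alone holds serine at all 3 positions and the LATS recognition motif at the sites of S127A and S381A.

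Site of S94A, exon 1, chr11:101981859-101981861, changed in YAP-S94A,S127A: cggaagctgcccgacTCCttcttcaagccg
Site of S127A, exon 2, chr11:101984932-101984934, changed in both lines: catgttcgagctcatTCCtctccagcttct
Site of S381A, exon 7, chr11:102098225-102098227, changed in YAP-2SA: cactctcgagatgagAGTacagacagtgga

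Values below are FPKM, a level scaled to transcript length and library size, for each library in replicate order. Differences are those of log2(FPKM + 1), YAP-2SA minus YAP-S94A,S127A, ± SE from limma with n = 3 per line. A locus was called when its adjusted p was under 0.05 and the ratio of its group means exceeded 2. Among 15055 loci tested, 2398 (15.9%) were called, 1171 (7.78%) higher and 1227 (8.15%) lower in YAP-2SA. Without the fold requirement 6686 loci (44.4%) passed the adjusted p, 3622 higher and 3064 lower. Group means differed by more than 4-fold at 596 called loci that were higher and 609 that were lower, and by more than 8-fold at 378 and 390. The median difference over all tested loci was 0.003. The log2 values of 2 libraries correlated across loci with r between 0.968 and 0.975 within a line and between 0.892 and 0.898 between the lines. Of the called loci, 401 had no gene name and 67 were short RNA loci. The libraries of the 2 lines did not overlap at 8443 (56.1%) of the tested and 2396 of the called loci. For the 167 called loci chosen by the rule for named genes, adjusted p lay between 8.1e-07 and 0.0045.

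**Figure D1:**
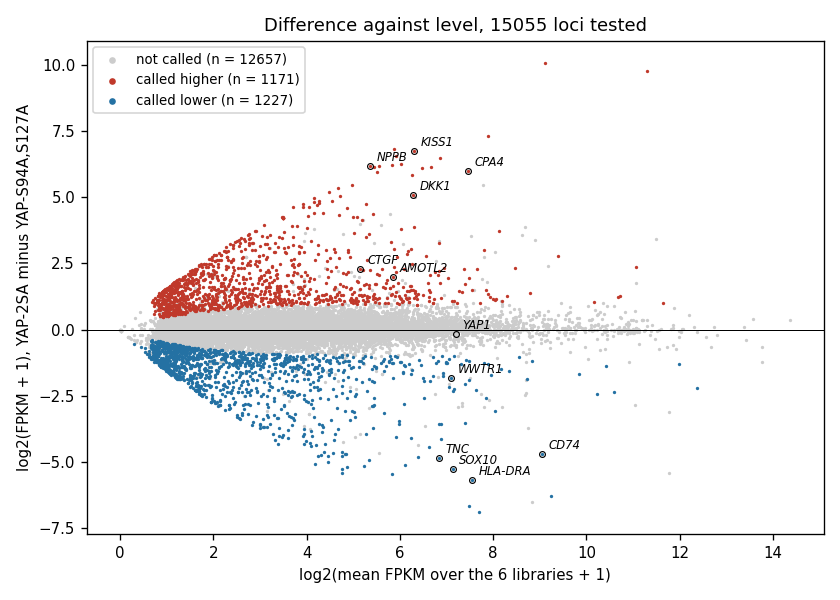
Each point is 1 of the 15055 tested loci, with log2(mean FPKM over the 6 libraries + 1) on the x axis and the difference in log2(FPKM + 1), YAP-2SA minus YAP-S94A,S127A, on the y axis. Called loci lie on both sides of 0, 1171 above and 1227 below, with KISS1, CPA4 and DKK1 far above, HLA-DRA, SOX10 and CD74 far below, and YAP1 near 0.

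YAP1 itself was at 130, 149 and 136 FPKM in the YAP-2SA libraries and at 151, 149 and 162 FPKM in the YAP-S94A,S127A libraries. The libraries of the lines overlapped, and the difference of -0.16 ± 0.07 did not pass the test (adjusted p = 0.099), although it did without YAP-2SA replicate 2 (-0.21, adjusted p = 0.0322). These reads come from the endogenous gene and the vector together. The empty vector libraries were at 34.1, 33.0 and 172 FPKM, so Control replicate 3 had the YAP1 level of the YAP lines, and the counts that use Control are given below with and without it.

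Some other factors of the pathway differed. WWTR1, which encodes the YAP paralog TAZ, was at 61.7, 56.3 and 58.3 FPKM in YAP-2SA and at 217, 197 and 224 FPKM in YAP-S94A,S127A, a fall of 3.62-fold in group means. TEAD3 rose from 2.99, 2.91 and 3.23 FPKM to 8.55, 9.64 and 9.32 FPKM, and TEAD4 rose from 20.3, 19.7 and 17.7 FPKM to 40.4, 41.4 and 40.8 FPKM. TEAD2 was also higher (0.62 ± 0.12, adjusted p = 0.0062) but by less than the fold required, and TEAD1, at 16.2, 14.7 and 18.1 against 13.7, 12.1 and 14.9 FPKM, did not pass (adjusted p = 0.098). VGLL2, a TEAD cofactor, was at 15.5, 8.32 and 11 FPKM against 0.0958, 0.191 and 0.114 FPKM. Thus 3 of the 8 tested TEADs and cofactors rose and 1 fell (50% called, against 15.9% of all loci), at similar YAP1 RNA levels. The amount of YAP protein was not measured in these libraries.

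**Figure D2:**
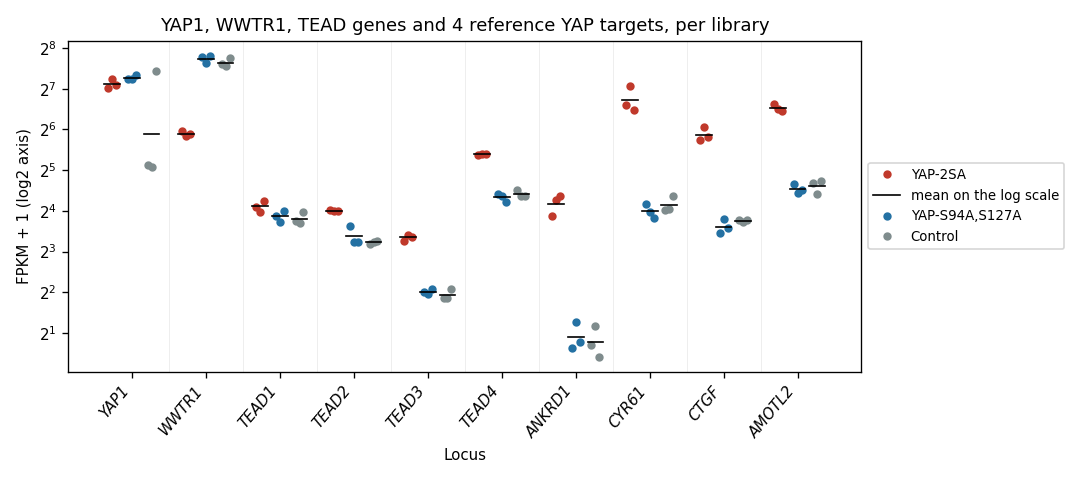
Levels of YAP1, WWTR1, the TEAD genes and 4 reference YAP targets, as FPKM + 1 on a log2 axis, with 1 point per library and a bar at the mean on the log scale for YAP-2SA, YAP-S94A,S127A and Control. YAP1 lies between 130 and 162 FPKM in both YAP lines, WWTR1 is lower in YAP-2SA, and ANKRD1, CYR61, CTGF and AMOTL2 are higher in YAP-2SA than in both other groups.

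Promoters of well-known YAP-TEAD target genes are shown because TEADs recognize a short motif that can be read in them. Of the 4 reference targets ANKRD1, CYR61, CTGF and AMOTL2, the 250 bases before the RefSeq start (GRCh38.p14) are printed for the 3 that were matched. Capitals mark GGAATG, the core TEAD motif, and TGANTCA, the AP-1 motif, on either strand, and neither motif contains the other.

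ANKRD1, chr10:90921088-90921337, minus strand: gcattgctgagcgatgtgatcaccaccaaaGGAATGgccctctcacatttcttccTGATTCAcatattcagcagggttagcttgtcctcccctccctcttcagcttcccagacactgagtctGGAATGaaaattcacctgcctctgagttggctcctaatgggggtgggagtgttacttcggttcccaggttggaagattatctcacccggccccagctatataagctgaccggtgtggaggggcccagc
CTGF, chr6:131951373-131951622, minus strand: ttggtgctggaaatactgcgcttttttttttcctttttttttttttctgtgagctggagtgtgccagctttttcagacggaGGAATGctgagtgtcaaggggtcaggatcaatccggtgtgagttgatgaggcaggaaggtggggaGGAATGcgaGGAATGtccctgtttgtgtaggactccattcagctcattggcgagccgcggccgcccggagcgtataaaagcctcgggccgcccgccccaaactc
AMOTL2, chr3:134374448-134374697, minus strand: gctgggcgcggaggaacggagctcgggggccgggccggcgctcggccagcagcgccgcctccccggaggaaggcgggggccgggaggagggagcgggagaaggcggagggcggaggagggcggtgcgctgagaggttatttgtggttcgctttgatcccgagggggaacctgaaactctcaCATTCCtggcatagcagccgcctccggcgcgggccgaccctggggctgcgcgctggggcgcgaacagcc

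CTGF held 3 TEAD motifs, at 169, 104 and 95 bases before the start, ANKRD1 held 2 at 220 and 128 bases together with 1 AP-1 motif, and AMOTL2 held 1 at 69 bases. Over all RefSeq promoters of this length, 11.9% held the TEAD motif and 6.57% the AP-1 motif. Promoters were matched for 696 of 955 named loci called higher in YAP-2SA, of which 139 (20.0%) held the TEAD motif and 71 (10.2%) the AP-1 motif. For loci called lower, 679 of 912 were matched, of which 93 (13.7%) held the TEAD motif and 85 (12.5%) the AP-1 motif. Among all 10040 matched loci that were tested, the shares were 13.0% and 6.13%. A match describes letters in a window and no binding was measured.

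The established targets of YAP and TEAD were higher in YAP-2SA. ANKRD1, an ankyrin repeat protein of muscle and wound responses, was at 13.6, 18.2 and 19.5 FPKM in YAP-2SA and at 0.545, 1.40 and 0.722 FPKM in YAP-S94A,S127A (3.27 ± 0.21). The matricellular proteins CYR61 and CTGF stood at 96.4, 133 and 88.1 FPKM against 17.0, 14.8 and 13.1 FPKM, and at 52.1, 66.1 and 55.5 FPKM against 9.94, 12.8 and 10.9 FPKM. AMOTL2, an angiomotin that binds YAP, was at 97.1, 89.1 and 86.2 FPKM against 24.2, 20.6 and 22.0 FPKM (1.98 ± 0.08). In each of the 4 genes every YAP-2SA library was above every YAP-S94A,S127A library, a separation that 56.1% of all tested loci had in either direction. In the same genes the YAP-S127A line had 4.24, 4.09 and 3.67 FPKM of ANKRD1, 41.7, 39.3 and 36.1 FPKM of CYR61, 26.6, 23.5 and 24.3 FPKM of CTGF and 51.7, 40.3 and 54.2 FPKM of AMOTL2, between the other lines in each case. The place of that line varied in other genes, with the means of HLA-DRA and KISS1 also between the other lines and that of MGP not. SOX10 was at 188, 230 and 255 FPKM and AMOT, an angiomotin that falls in YAP-2SA, at 11.2, 10.8 and 11.1 FPKM, where neither differed from YAP-S94A,S127A by the test (-0.29, adjusted p = 0.23, and -0.01, adjusted p = 0.97), while YAP-2SA differed from YAP-S127A by -4.99 and -1.90 (adjusted p = 2.8e-05 and 5.1e-05). HLA-DRA differed by -0.53 between YAP-S127A and YAP-S94A,S127A (adjusted p = 0.0075) and by -5.14 between YAP-2SA and YAP-S127A (adjusted p = 3.3e-06), and KISS1 by 4.15 and 2.60 (adjusted p = 0.00026 and 3.1e-05). MGP, a matrix protein, was at 23.9, 36.8 and 23.7 FPKM in YAP-S127A, 19.6, 23.2 and 16.7 FPKM in YAP-S94A,S127A and 0.168, 0.264 and 0.283 FPKM in YAP-2SA. Its difference of 0.47 between YAP-S127A and YAP-S94A,S127A did not pass (adjusted p = 0.23). The sizes of these steps share the YAP-S127A libraries and were not tested against each other.

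Of the 22 genes in the published WANG_YAP/TAZ target list, all tested, 16 rose and 1 fell, with a median difference of 1.35 against 0.003 over all loci. Beside the 4 above, F3, which encodes tissue factor and starts coagulation, rose by the most (2.94 ± 0.08, from 1.13, 1.44 and 1.33 FPKM to 16.9, 16.9 and 16.0 FPKM), and ARHGEF17 by the least (0.93 ± 0.08). The single fall was in IGFBP3, a binding protein of insulin-like growth factors, at 8.67, 9.47 and 8.28 FPKM in YAP-2SA and 53.5, 55.3 and 54.7 FPKM in YAP-S94A,S127A. The other 5 genes, ASAP1, RBMS3, NT5E, DOCK5 and PTPN14, had differences of 0.77, 0.59, 0.38, 0.22 and 0.21 and were not called. In the CORDENONSI_YAP list 18 of 44 tested genes rose and 1, EMP2, a tetraspan membrane protein, fell. Calls made up 43.2% of this list and 77.3% of the WANG_YAP/TAZ list, against 15.9% of all loci. The study's own signature gave 69 of 74 Up genes higher, 0 lower, and 50 of 50 Down genes lower. That signature was chosen partly on these YAP-2SA libraries, so its counts are not independent evidence of direction.

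Of the loci with a single gene name, KISS1 differed most. KISS1, the precursor of the kisspeptins and first described as a metastasis suppressor, was at 154, 148 and 163 FPKM in YAP-2SA and at 0.380, 0.786 and 0.227 FPKM in YAP-S94A,S127A (6.75 ± 0.14). UCA1, a long noncoding RNA, was at 98.4, 125 and 130 FPKM against 0.430, 0.0733 and 0.336 FPKM. NPPB, the precursor of B-type natriuretic peptide, was at 61.7, 90.2 and 89.1 FPKM against 0.261, 0.116 and 0 FPKM. All 3 genes were under 1 FPKM in every YAP-S94A,S127A library. BASP1, a membrane-bound protein of growth cones, and MME, the cell surface peptidase neprilysin, differed by 6.16 ± 0.08 and 6.15 ± 0.17. CPA4, a carboxypeptidase, reached 363, 319 and 354 FPKM from 3.73, 5.69 and 4.04 FPKM, the highest level among these 12 genes. The remaining 6 were C19orf33 (5.84 ± 0.24), the secreted Wnt antagonist DKK1 (5.08 ± 0.07), the alkaline phosphatase ALPP, whose near-identical paralogs make its value uncertain (5.04 ± 0.14), the endocytosis protein SH3GL2 (4.98 ± 0.14), the chemokine CXCL14 (4.86 ± 0.14) and the collagen chain COL1A1 (4.82 ± 0.12). Of the called loci, 4 had a larger rise than KISS1, 3 of them without a gene name and 1 a short RNA.

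Among the falls, HLA-DRA differed most, a chain of the MHC class II molecules that present peptides to CD4+ T cells. It was at 5.89, 7.12 and 5.70 FPKM in YAP-2SA and at 372, 357 and 367 FPKM in YAP-S94A,S127A (-5.67 ± 0.08). SOX10, the master factor of the neural crest and melanocyte lineage, was at 4.53, 7.25 and 6.69 FPKM against 250, 287 and 278 FPKM (-5.27 ± 0.16). In HLA-DRA and SOX10 the libraries of each line lay close together and the lines lay 58.6-fold and 44.2-fold apart in group means. TNC, the matrix protein tenascin C, was at 6.03, 6.79 and 7.01 FPKM against 213, 213 and 233 FPKM. TGFA, a ligand of the EGF receptor, was at 4.37, 4.51 and 5.52 FPKM against 155, 157 and 169 FPKM. CD74, the invariant chain of MHC class II, was at 37.1, 41.0 and 36.3 FPKM against 1042, 973 and 1017 FPKM, the highest level of these 12 genes in YAP-S94A,S127A. The others were SYTL5 (-5.20 ± 0.11), the syndecan SDC3 (-5.15 ± 0.08), the calcium-binding protein S100A1 (-5.12 ± 0.12), the neural crest factor TFAP2B (-5.01 ± 0.14), FXYD3, a regulator of the sodium pump (-4.92 ± 0.06), PMEPA1, a TGF-beta-induced membrane protein (-4.76 ± 0.07), and TESC, a calcium-binding protein (-4.69 ± 0.07). FXYD3 was among the 5 loci with the smallest p of the comparison, as was BASP1 among the rises. A larger fall than that of HLA-DRA was found at 3 called loci, of which 1 was a short RNA and 2 joined several genes.

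**Figure D3:**
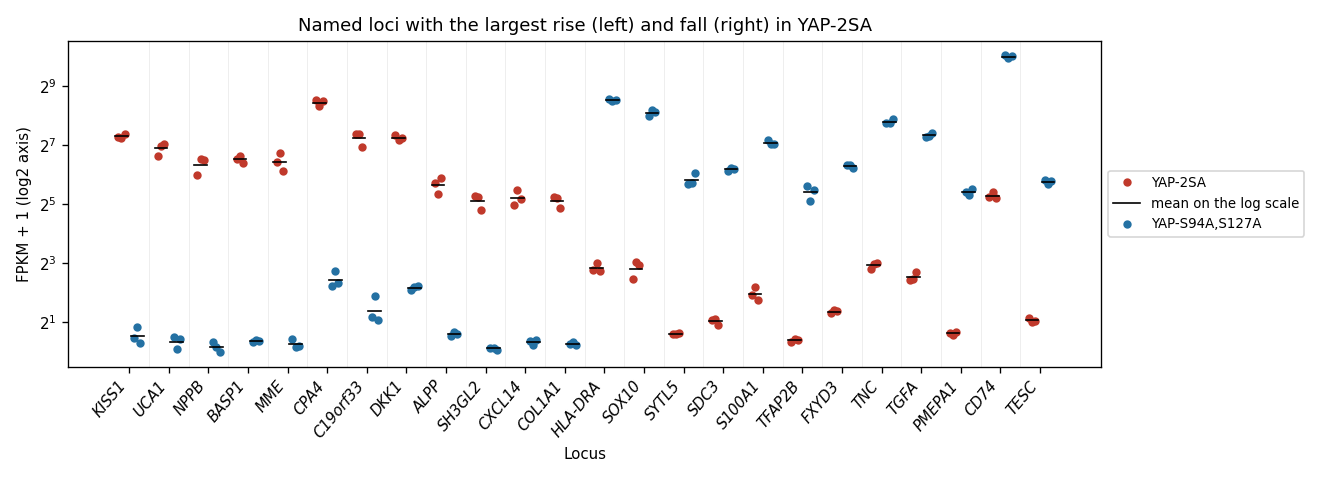
Levels of the 12 single-gene loci that rose most and the 12 that fell most, as FPKM + 1 on a log2 axis, with 1 point per library and a bar at the mean on the log scale. The libraries of the lines do not overlap at any of these loci, which was a condition of the rule that chose them.

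The MHC class II genes fell as a set of 11 of 11 tested, with a median difference of -3.58. CIITA, the coactivator that switches this gene family on, was at 0.735, 0.671 and 0.571 FPKM in YAP-2SA and at 14.4, 15.2 and 16.9 FPKM in YAP-S94A,S127A (-3.31 ± 0.09). HLA-DPA1 was at 16.2, 16.2 and 18.2 FPKM against 208, 198 and 221 FPKM, and HLA-DMA, which helps load peptides, was at 5.49, 6.09 and 5.39 FPKM against 52.9, 54.5 and 58.1 FPKM. The smallest difference was in HLA-DPB1 (-1.58 ± 0.07). The HLA-DRB1 locus joins HLA-DRB5 and HLA-DRB6, so its fall (-6.27 ± 0.67), with 4.29, 34.4 and 18.0 FPKM in YAP-2SA, cannot be given to any of them. The MHC class I genes differed in another way, since 1 of 14 tested was called, the joined HLA-B and HLA-C locus (-1.02 ± 0.11), whose call was lost without YAP-S94A,S127A replicate 3 or YAP-2SA replicate 1. B2M, the light chain of class I, had a difference of 0.05. Of 25 interferon-stimulated genes, 5 rose, among them IFITM2 (2.17 ± 0.06), and 2 fell, ISG20 (-2.81 ± 0.07) and BST2 (-1.53 ± 0.12). Calls made up 28% of the interferon list and 7.14% of the class I list, against 15.9% of all loci.

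Genes of the melanocyte and neural crest lineages moved in both directions. Of 15 neural crest and glial genes, 10 fell and 3 rose. S100B, a calcium-binding protein of glia and melanoma, was at 0.790, 1.03 and 0.606 FPKM against 44.2, 41.6 and 47.5 FPKM. ERBB3, the neuregulin receptor of crest cells, was at 4.29, 6.99 and 6.38 FPKM against 120, 102 and 117 FPKM. Both were lower in every YAP-2SA library. The rises were in the adhesion molecule L1CAM, at 92.4, 110.0 and 101 FPKM against 7.77, 11.6 and 8.96 FPKM, in the factor SOX9, at 10.5, 12 and 8.57 FPKM against 0.261, 0.401 and 0.484 FPKM, and in GFRA1 (1.18 ± 0.09). Of 10 melanocyte and pigment genes, 4 rose and 3 fell. MITF, the master regulator of melanocytes, was at 33.9, 30.2 and 41.1 FPKM against 5.59, 5.05 and 8.90 FPKM, the direction opposite to that of SOX10. GPNMB (1.75 ± 0.07) and SLC24A5 (1.80 ± 0.12), both melanosome genes, rose, while RAB38 (-1.05 ± 0.18) and BCAN (-1.18 ± 0.11) fell. The pigment enzyme genes TYR, TYRP1 and DCT were too low to be tested. Calls made up 86.7% of the neural crest and glial list and 70% of the melanocyte and pigment list, against 15.9% of all loci.

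The AP-1 genes, which form dimers of JUN and FOS proteins, split by member, with 5 of 9 higher and 3 lower. FOSL2 was at 24.1, 29.2 and 24.9 FPKM in YAP-2SA and at 1.97, 3.13 and 2.54 FPKM in YAP-S94A,S127A. JUN was at 35.5, 32.4 and 29.1 FPKM against 3.64, 4.05 and 3.20 FPKM, and FOSL1 at 344, 373 and 302 FPKM against 109, 140 and 108 FPKM. The members that fell were FOS (-2.08 ± 0.29), FOSB (-1.37 ± 0.10) and JUNB (-1.25 ± 0.07). Of 15 ERK output and feedback genes, 7 fell and 1, the phosphatase DUSP5 (1.32 ± 0.21), rose. SPRY4 and SPRY2, inhibitors of receptor kinase signaling, were at 9.09, 9.55 and 7.92 FPKM against 99.7, 126 and 122 FPKM and at 24.8, 29.0 and 22.9 FPKM against 171, 155 and 143 FPKM, and the immediate early factor EGR1 fell by 2.84 on the log2 scale. CCND1 (0.32) and DUSP4 (-0.25), further genes of this list, were not called. The share called was 88.9% of the AP-1 list and 53.3% of the ERK list, against 15.9% of all loci.

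Receptors and ligands of the EGF family changed in opposite directions within the family. The receptor EGFR, whose locus includes a further transcript, was at 35.8, 45.2 and 45.1 FPKM against 4.36, 5.67 and 3.93 FPKM, while ERBB3 fell as given above. The ligand NRG1 was at 27.7, 31.3 and 30.8 FPKM against 0.662, 0.479 and 0.609 FPKM (4.29 ± 0.08), and HBEGF (2.24 ± 0.11) and AREG (1.47 ± 0.15) also rose, whereas TGFA fell. Over 17 receptor tyrosine kinases 5 rose and 5 fell, a called share of 58.8% against 15.9% of all loci. AXL, a receptor linked to drug-tolerant melanoma, was at 183, 193 and 184 FPKM against 36.3, 43.0 and 40.8 FPKM, and EPHA2 was at 179, 191 and 176 FPKM against 33.9, 51.5 and 44.7 FPKM. DDR1 (-1.04 ± 0.07) and the FLT1 locus (-1.62 ± 0.10) fell.

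Genes of the actin cytoskeleton were higher. Of 26 tested actin and SRF target genes, 15 rose and 0 fell (57.7% called, against 15.9% of all loci), with a median difference of 1.14. TGM2, a transglutaminase that crosslinks proteins, was at 140, 187 and 166 FPKM against 18.3, 27.6 and 24 FPKM. MYL9, a myosin light chain, was at 21.0, 22.4 and 18.6 FPKM against 3.95, 2.92 and 2.40 FPKM, and the actin-binding TAGLN was at 13.4, 15.1 and 18.8 FPKM against 3.03, 3.27 and 2.48 FPKM. ACTB (0.66), ACTN1 (-0.14) and SRF (-0.16) were not called. Of 6 caveolae loci 4 rose and 0 fell (66.7% called). The locus that joins the caveolins CAV1 and CAV2 was at 509, 491 and 554 FPKM against 32.8, 44.2 and 37.8 FPKM, and EHD2, which stabilizes caveolae, rose by 2.05 ± 0.07.

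In the cell surface and matrix families members changed in both directions: 3 of 17 integrin subunits rose and 6 fell, 5 of 17 collagens rose and 6 fell, and 4 of 15 cadherin genes rose and 4 fell. The integrin chain ITGB4 was at 59.6, 72.9 and 57.3 FPKM in YAP-2SA against 2.29, 2.61 and 2.31 FPKM, while the ITGB3 locus was at 1.24, 1.77 and 1.63 FPKM against 100.3, 113 and 119 FPKM. Among the alpha subunits ITGA3 rose (1.10 ± 0.09) and ITGA9 fell (-3.66 ± 0.09). Of the collagens, COL12A1 (2.36 ± 0.10) and COL5A2 (2.11 ± 0.07) rose with COL1A1, and COL9A3 (-2.30 ± 0.13), COL6A1 (-1.51 ± 0.09) and the basement membrane chain COL4A1 (-1.28 ± 0.08) fell. The cadherin CDH6 was at 8.43, 7.96 and 9.35 FPKM against 0.0267, 0.0867 and 0.0475 FPKM, and CDH19, a cadherin of the crest lineage, was at 0, 0.0570 and 0.123 FPKM against 6.01, 6.0 and 8.11 FPKM. Among 17 matricellular and matrix glycoprotein genes 7 rose, NOV the most (3.16 ± 0.13), and 3 fell, TNC, MGP (-4.06 ± 0.13) and SPARC (-1.18 ± 0.06). Of 13 plasminogen and coagulation genes 8 rose, among them TFPI (1.94 ± 0.22) and F2RL2 (1.47 ± 0.10), and 1 fell, the protease inhibitor SERPINE2, from 2002, 1880 and 2155 FPKM to 369, 384 and 365 FPKM. Calls made up 52.9% of the integrin, 64.7% of the collagen and 53.3% of the cadherin list. They made up 58.8% of the matricellular and 69.2% of the plasminogen list, against 15.9% of all loci.

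**Figure D4:**
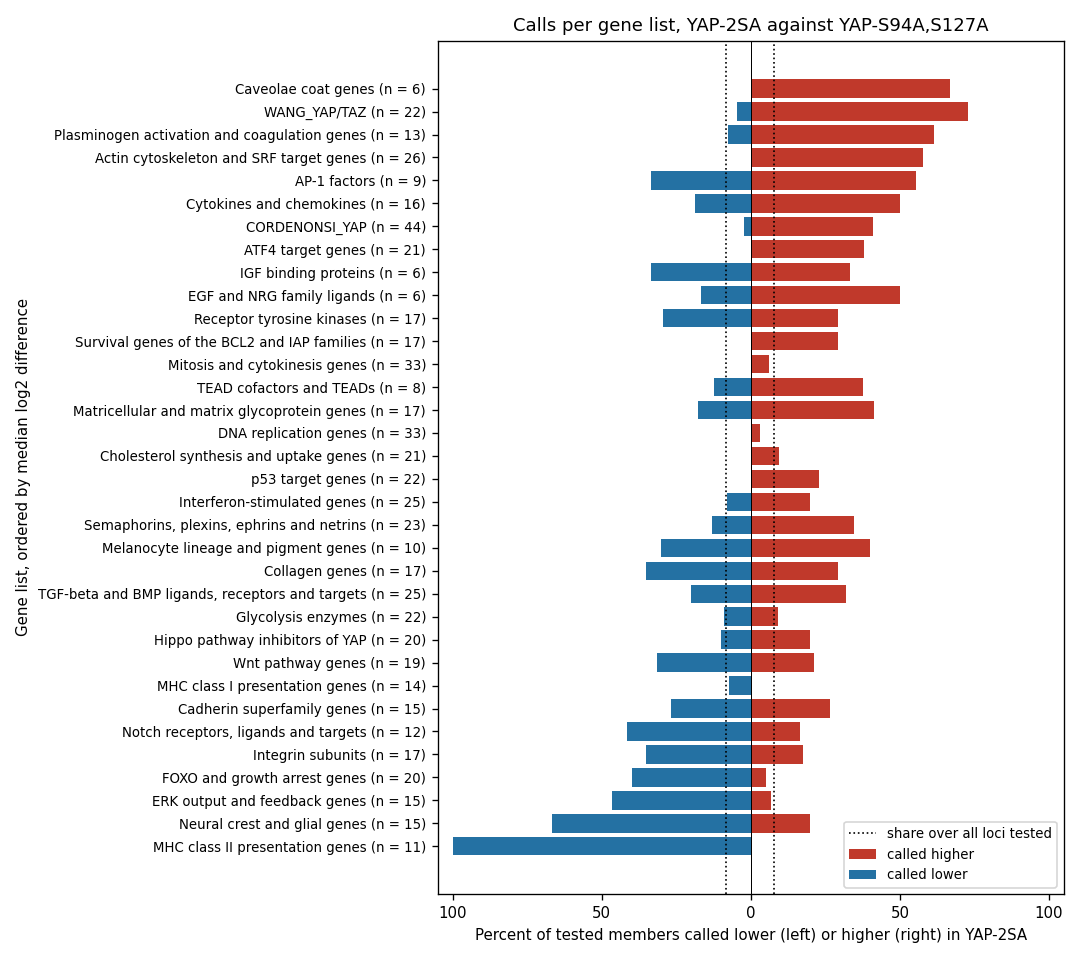
Share of the tested members of each gene list called lower (left, blue) or higher (right, red) in YAP-2SA than in YAP-S94A,S127A, in percent, with lists ordered by their median log2 difference. Dotted lines mark the shares over all tested loci, 8.15% and 7.78%. All 11 MHC class II genes are on the lower side. The actin, caveolae, ATF4, BCL2 and IAP, p53, DNA replication, mitosis and cholesterol lists have called members on the higher side only.

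Genes of secreted signals also changed in both directions. In the TGF-beta and BMP list 8 of 25 genes rose, GDF15 the most (4.75 ± 0.28), and 5 fell, among them ID4 (-1.98 ± 0.10) and INHBA (-1.54 ± 0.13). FSTL1, in a locus joined with MIR198, was at 93.7, 109 and 106 FPKM against 2.92, 84.0 and 3.08 FPKM and did not pass (adjusted p = 0.073), since YAP-S94A,S127A replicate 2 stood apart from its group. Among 19 Wnt genes 4 rose, with DKK1 and the receptor FZD2 (1.63 ± 0.05) first, and 6 fell, with the receptor FZD8 (-2.83 ± 0.08) and the Wnt-responsive factor LEF1 (-2.22 ± 0.18) first. In the Notch list the target HES1 was at 1.54, 0.401 and 0.852 FPKM against 18.1, 18.8 and 13.5 FPKM, and 5 of 12 genes fell while 2 rose, HES4 (2.26 ± 0.15) and the joined NOTCH4 locus (1.18 ± 0.11). Of 16 cytokines and chemokines 8 rose, led by IL18 (3.08 ± 0.12), and 3 fell, CXCL3, IL8 and IL1A. CXCL14, given above, is not on this list. The semaphorins SEMA3F (2.93 ± 0.10) and SEMA3A (2.62 ± 0.06) led 8 rises among 23 guidance genes, and the semaphorin receptor NRP2 (-1.95 ± 0.10) led 3 falls. IGFBP4 and IGFBP6 rose and IGFBP3 and IGFBP5 fell, out of 6 IGF binding proteins. The shares called were 52% for TGF-beta and BMP, 52.6% for Wnt, 58.3% for Notch and 68.8% for cytokines and chemokines. They were 47.8% for guidance genes and 66.7% for IGF binding proteins, against 15.9% of all loci.

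Few proliferation genes were called, 3.03% of the DNA replication list and 6.06% of the mitosis list against 15.9% of all loci, and those past the adjusted p were mostly higher. Over all 15055 loci 6686 (44.4%) passed the adjusted p, 3622 with higher and 3064 with lower values. Of 33 DNA replication genes 20 passed the adjusted p with higher values and 1 with lower values, with a median difference of 0.39, but only the thymidine kinase TK1 exceeded the fold (157, 138 and 141 FPKM against 67.0, 66.1 and 61.6 FPKM). Of 33 mitosis genes 27 passed with higher values and 0 with lower ones, with a median of 0.46, and ANLN (1.09 ± 0.04) and CEP55 (0.99 ± 0.05) were called, with a count of 1 in place of 2 without YAP-S94A,S127A replicate 3 or YAP-2SA replicate 3. The BCL2 and IAP list had 5 of 17 genes higher, led by the survival gene BCL2L1 (79.0, 82.0 and 85.8 FPKM against 21.9, 21.9 and 22.1 FPKM) and followed by BOK (1.66 ± 0.12) and the cell death inducer BIK (1.52 ± 0.14), with 3 of 17 higher without YAP-2SA replicate 1. Of 20 FOXO and growth arrest genes 8 fell, among them KLF9 (-2.58 ± 0.12) and DEPTOR (-2.38 ± 0.08), and GADD45A rose (1.14 ± 0.10). GADD45A is also among the 5 of 22 p53 target genes that rose, with GDF15, PLK2 (1.75 ± 0.12), FDXR (1.18 ± 0.08) and BTG2. Calls made up 22.7% of the p53 list, 29.4% of the BCL2 and IAP list and 45% of the FOXO list, against 15.9% of all loci.

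Of 21 ATF4 target genes, which serve amino acid supply and stress responses, 8 rose and 0 fell (38.1% called). The adjusted p was passed with higher values by 18 of them, against 3622 of all 15055 loci. STC2, a secreted stanniocalcin, was at 22.4, 18.0 and 18.7 FPKM against 1.39, 2.14 and 1.87 FPKM, and the amino acid transporter SLC7A5 was at 298, 228 and 295 FPKM against 90.4, 106 and 91.8 FPKM. ATF5 had a difference of -2.04 but did not meet the rule for a call. Of 21 cholesterol genes 2 rose, HMGCS1 (1.58 ± 0.08) and ACAT2 (1.04 ± 0.06), and of 22 glycolysis genes 2 rose and 2 fell, PFKFB3 (-1.61 ± 0.07) and the joined PFKFB4 locus (-2.50 ± 0.18). These are 9.52% and 18.2% of the lists, below and near the 15.9% of all loci. The Hippo pathway inhibitors of YAP had 4 of 20 genes higher, the scaffold WWC1 (2.31 ± 0.13), AMOTL2, the kinase LATS2 (1.10 ± 0.07) and WWC2, and 2 lower, AMOT (-1.90 ± 0.08) and AMOTL1 (-1.09 ± 0.10). Calls made up 30% of this list.

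Markers of the labelled cell type and of other cell types were measured beside these groups. Of 10 tested melanoma line markers 6 fell and 1, MITF, rose, and the 12 markers summed to between 939 and 996 FPKM in YAP-2SA and to between 1955 and 1974 FPKM in YAP-S94A,S127A, where SOX10, S100B, S100A1 and MIA were all present. PMEL and MLANA were under 1 FPKM in both lines. Calls made up 70% of the tested melanoma line markers, against 15.9% of all loci. The sums of fibroblast markers were 81.5 to 89.99 FPKM against 43.3 to 52.0 FPKM, of which COL1A1 and the locus that joins PDGFRB with CSF1R, a receptor of macrophages, were called and the defining genes COL3A1 and FAP were too low to be tested. Keratinocyte markers summed to 28.3 to 35.0 FPKM against 31.6 to 38.1 FPKM, and 3 of the 4 tested were called. The keratins KRT5 (1.33 ± 0.09) and KRT14 (-2.50 ± 0.08) changed in opposite directions, KRT14 from 7.0, 6.95 and 7.40 FPKM to 0.389, 0.362 and 0.551 FPKM, and the desmosome gene DSC3 rose (1.62 ± 0.10). Leukocyte markers summed to 111 to 119 FPKM against 90.6 to 101 FPKM, and 1 of 3 tested was called, the LYZ locus, which fell from 16.3, 14.4 and 13.3 FPKM to 2.42, 2.35 and 2.77 FPKM. Of the 10 leukocyte markers 7 were under 1 FPKM in each line, so few genes make up these sums, and PTPRC and CD3E were too low to be tested. Endothelial markers summed to 1.88 to 2.14 FPKM against 2.18 to 3.15 FPKM. Their part in the results was not tested. None of 12 housekeeping genes was called, although 4 passed the adjusted p with higher values and 0 with lower ones, with a median difference of 0.09. Of all 15055 loci 3622 passed with higher and 3064 with lower values. No gene of the mitochondrial list was in the data.

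The comparison with the empty vector addresses whether the same loci would be found with cells that carry no YAP protein from a vector. YAP-2SA against Control gave 2274 calls (15.1% of loci tested). Both comparisons use the same YAP-2SA libraries, so their overlap is not independent and the values are set side by side. Calls in both numbered 2051, 85.5% of the calls against YAP-S94A,S127A and 90.2% of those against Control, and 0 of them had opposite signs. SOX10 differed by -5.27 from YAP-S94A,S127A and by -5.22 from Control, HLA-DRA by -5.67 and -5.68, KISS1 by 6.75 and 6.75, WWTR1 by -1.84 and -1.74, and DKK1 by 5.08 and 4.37. Without Control replicate 3 the differences from Control were -5.17 for SOX10, -5.69 for HLA-DRA, 6.82 for KISS1, -1.69 for WWTR1 and 4.22 for DKK1. The difference between both comparisons is YAP-S94A,S127A against Control, for which 28 loci (0.186%) passed the adjusted p in limma. An unadjusted p of 0.05 was passed by 678 of the 15055 loci, and a share of 0.05 would pass if no locus differed. Without Control replicate 3 there were 2209 calls against Control, 1972 in both comparisons and 32 loci between YAP-S94A,S127A and Control.

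Loci called in a single comparison were 347 against YAP-S94A,S127A and 223 against Control, of which 211 and 125 did not pass the adjusted p with the same sign in the other comparison. Without Control replicate 3 these counts were 426 and 237, of which 293 and 136 did not pass. A stricter reading asked that the other comparison did not pass with the same sign and that YAP-S94A,S127A and Control differed from each other. Of loci called against YAP-S94A,S127A, 11 met it, 8 of them short RNAs, and of loci called against Control, 6 met it, 5 of them short RNAs. Without Control replicate 3 each count was 10. FAM45A was at 3.68, 4.07 and 3.83 FPKM in YAP-2SA, at 0.450, 0.324 and 0.126 FPKM in YAP-S94A,S127A and at 2.80, 3.35 and 2.99 FPKM in Control. The low values were thus those of YAP-S94A,S127A, while YAP-2SA and Control differed by 0.27 on the log2 scale and did not pass (adjusted p = 0.051). The FAM45A,FAM45B locus, which holds a near-identical copy, had mean levels of 11.1, 12.5 and 9.17 FPKM in the same order, so reads may be split between them. LOC285074, chosen after its values were seen, had a like pattern, with 6.83, 7.33 and 6.86 FPKM in YAP-2SA, 1.22, 1.22 and 1.13 FPKM in YAP-S94A,S127A and 5.83, 5.47 and 5.91 FPKM in Control. It was not among the 11, because YAP-2SA also passed against Control (0.25, adjusted p = 0.0282). The TBC1D17 locus, joined with MIR4750, was at 11.9, 11.3 and 10.5 FPKM in YAP-2SA, at 278, 256 and 134 FPKM in YAP-S94A,S127A and at 12.2, 11.5 and 13.6 FPKM in Control. Its value also reached 424 FPKM in YAP-S127A replicate 3, against 13.1 and 11 FPKM in the other replicates of that line. The IGL@ locus joined with E07735 (another locus carries IGL@ alone) was listed at 0 in all 3 YAP-2SA libraries and was at 14.8, 7.80 and 7.30 FPKM in YAP-S94A,S127A and 0.332, 0 and 0.358 FPKM in Control. In the other direction, the locus that joins HIST2H2BF with AX747534 (another locus carries HIST2H2BF alone) was at 0.409, 0.495 and 0.184 FPKM in YAP-2SA and 0.466, 0.272 and 0.309 FPKM in YAP-S94A,S127A, and at 2.17, 2.42 and 2.15 FPKM in Control.

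Of these 4 named loci, HIST2H2BF kept its place in 14 of 16 other settings, TBC1D17 in 13 of 17, IGL@ in 10 of 17 and FAM45A in 9 of 16. The short RNAs included SNORD2, at 118, 111 and 297 FPKM in YAP-2SA, 1.85, 0 and 3.32 FPKM in YAP-S94A,S127A and 209, 237 and 391 FPKM in Control, and MIR3944, at 20.3, 18.0 and 18.2 FPKM in YAP-S94A,S127A and listed at 0 in the YAP-2SA and Control libraries. MIR3944 kept its place in 16 of 16 settings. Some short RNA loci outside these counts varied between 0 and high values within a line. In YAP-2SA, SNORD52 was at 351, 0 and 296 FPKM and SNORD58A at 0, 154 and 276 FPKM. SNORA74A, at 2.28, 2.15 and 1.93 FPKM in YAP-2SA, was higher than in YAP-S94A,S127A (0.324, 0 and 0 FPKM) and, without Control replicate 3, called lower than in Control (4.06 and 4.61 FPKM), the single locus with opposite calls. Short RNA loci were called in the main comparison at a share of 15.7%, close to the 15.9% of all loci.

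**Figure D5:**
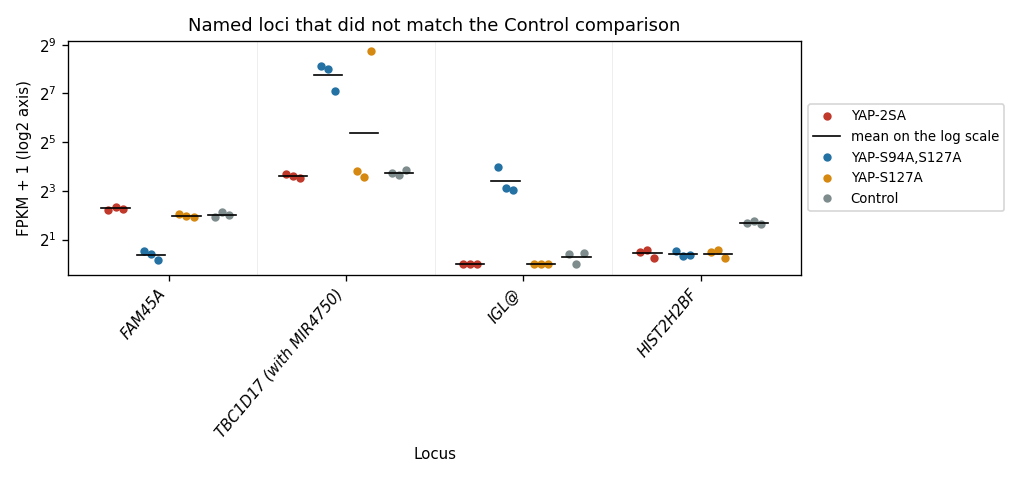
Levels of the 4 named loci that did not match between the comparisons, as FPKM + 1 on a log2 axis, with 1 point per library and a bar at the mean on the log scale for the 4 groups. YAP-S94A,S127A stands apart at FAM45A, TBC1D17 and IGL@, with 1 YAP-S127A library beside it at TBC1D17, and Control stands apart at HIST2H2BF.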

How the data were processed

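A375 cells with 4 vectors were sequenced on a HiSeq2000 after TRIzol extraction and TruSeq preparation. Per the labels and the study's methods, the authors aligned reads to hg19 with Bowtie2 2.0.0 and TopHat2 2.0.4, summarised transcripts per locus with Cufflinks 2.0.2 and deposited log2(FPKM + 1) values. FPKM are not counts, so depth is unknown, no count test was run, and only the spread between libraries gives precision. The labels give lysis at 24 h, whereas the methods give a longer culture. After 3 identical entries were removed, 15055 of 31585 loci that reached 1 FPKM in 3 or more of the 12 libraries were tested with limma 3.58.1 (R 4.3.3, intensity trend, Benjamini-Hochberg adjustment) on log2(FPKM + 1), with the 6 libraries of each comparison. This scale understates changes of low loci, so the fold used group mean FPKM without a pseudocount. The fit was tested on simulated data. Named genes were YAP1, WWTR1, TEADs, reference targets, the 12 largest rises and 12 largest falls, up to 3 per direction and list, the 5 smallest p and loci that did not match. A list gene on several loci was read at the highest mean. The members and lists were chosen with earlier results of these data known. No p was adjusted over a list. Replicate numbers did not pair libraries, with same-number correlations of 0.0609, 0.00666 and -0.0748. Alternatives covered scaling, pseudocount, filters, thresholds and left-out libraries. Reference sequences came from RefSeq and GENCODE. Figures used Python 3.11.15 and matplotlib 3.10.9.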

Additional observations from a re-analysis of the deposited data

How the results depend on the processing

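No call of the main comparison changed direction under any alternative, and 92.7% to 100% of the 2398 calls were kept under those that left all calls testable, except at an adjusted p of 0.01 (89.7%) and with the fold taken on log2(FPKM + 1) (75.4%). With an FPKM of at least 5, 641 loci were higher and 609 lower, and all of the 1249 earlier calls still tested were kept. Without the fold threshold there were 3622 and 3064. At an adjusted p of 0.01, 4400 loci passed. Leaving out 1 library gave 1131 to 1202 higher, 1173 to 1219 lower and 5231 to 6090 past the adjusted p. With a replicate block, 1168 were higher and 1214 lower, and 6677 passed. The block gave 3 loci called against YAP-S94A,S127A that did not match Control, in place of 11. That count was also 3 with a pseudocount of 0.1, 4 without a filter, 4 over annotated loci without short RNAs, 5 at an adjusted p of 0.01, and 6 to 14 with 1 library left out, at 6 without Control replicate 2, 6 without YAP-S94A,S127A replicate 2 and 7 without YAP-S94A,S127A replicate 1. The loci called against Control that did not match numbered 6, and 1 with a pseudocount of 0.1, 12 with all 12 libraries in the fit, 1 over annotated loci and 6 to 20 with 1 library left out, at 20 without Control replicate 1 and 10 without Control replicate 3 or YAP-2SA replicate 2. The YAP1 difference ranged from -0.213 to -0.113 with 1 library left out, and it passed without YAP-2SA replicate 2 (adjusted p = 0.0322). Apart from YAP1, of 2691 values of 170 named loci under alternatives, 2686 kept their direction and their side of the adjusted p threshold. TEAD1 passed with the block (adjusted p = 0.0167), and the HIST2H2BF locus, not called at 0.011, gave -0.030, -0.010, -0.017 and -0.060 without YAP-S94A,S127A replicate 2 or 3 or YAP-2SA replicate 1 or 2, and up to 0.108 without YAP-2SA replicate 3. Of 1344 list counts, 23 moved by over 1.5 times, mostly under the FPKM minimum of 5. The causes were not tested. The depth of the libraries is unknown, so low FPKM have an unknown counting error.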
